A study of Bos taurus with 6 samples.

Results

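The regions described here are the 435 places on the bovine autosomes where a ChIP-seq peak was called in every one of 6 libraries, whether or not an antibody had been used. They were selected on the calls themselves. All peaks of the 6 deposited lists that overlapped by at least 1 bp were joined into 5619 regions, and a region was kept when it lay on chromosomes 1 to 29, started at position 1000000 or beyond and held a peak from each list. Of all 5619 regions, 600 (10.7%) held a peak from every list, with 105 of these on X and 60 in the first Mb of an autosome. The remaining 435 were 9.39% of the 4633 autosomal regions from 1 Mb on and are called the shared regions, or members, below. Being called everywhere, and scoring above the calling threshold in each list, is therefore how they were chosen and not a result about them.

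The libraries came from in vitro produced bovine blastocysts collected on day 8, at 192 h post insemination, after culture in mSOF with fetal calf serum added on day 3. A pool of 669 blastocysts made up replicate 1 and a pool of 677 made up replicate 2. From the sheared chromatin of a pool came an Input library without immunoprecipitation, a MAT2A-ChIP library made with the mouse monoclonal antibody ab86424, and an IgG control library made with a mouse IgG2B isotype antibody, so that n was 2 for each of 3 library types and each number pairs 3 libraries of one pool. A blastocyst holds an inner cell mass and a trophectoderm, and both were in the pooled chromatin.

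MAT2A is the catalytic subunit of the methionine adenosyltransferase found in most tissues, which makes S-adenosylmethionine, the methyl donor for DNA, RNA and histone methylation. The enzyme has also been found in the nucleus on chromatin, and the study asked which genomic regions it associates with in the blastocyst. In ChIP-seq generally, an Input library shows where reads accumulate in sheared chromatin before any selection, and an isotype control shows what an antibody without that target and the beads recover. Regions called in both kinds of control as well as in the ChIP are commonly set aside before targets of an antibody are read. The shared regions are that class of regions in bovine blastocysts, apart from X and the first Mb of the autosomes.

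Each list held between 1788 and 2094 peaks, and the shared regions took up 22.6% to 26.7% of the peaks of a list. In Input 1, 457 of 2023 peaks lay in them (22.6%, 95% Wilson interval 20.8% to 24.5%), and in MAT2A-ChIP 2, 478 of 1788 did (26.7%, 24.7% to 28.8%), the lowest and the highest share. The other shares were 25.2% in Input 2, 23.4% in MAT2A-ChIP 1, 25.2% in IgG control 1 and 25.4% in IgG control 2, so that no library type stood apart from the others. These intervals cover counting error only, and reads behind a single peak are not given in the lists. Of the base pairs covered by peaks, the shared regions held 29.4% in Input 1, 33% in Input 2, 29.7% in MAT2A-ChIP 1, 34.9% in MAT2A-ChIP 2 and 31.7% in each IgG control list.

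The strongest peaks of every list lay mostly in these regions. Among the 100 peaks with the highest score, 89 in each Input list, 88 and 91 in MAT2A-ChIP 1 and 2, and 88 and 86 in IgG control 1 and 2 belonged to a shared region. A further 4 to 7 of each 100 were on X. The score is the peak caller's −10 log10 p-value, which starts at 50 for the default p-value of 1e-05 and rises with both depth and enrichment, so raw scores describe a region within its list and differences between lists were read from percentiles. The median score over the 435 members was 299.0 in Input 1, 278 in Input 2, 176 in MAT2A-ChIP 1, 158 in MAT2A-ChIP 2, 155 in IgG control 1 and 167 in IgG control 2. Other autosomal peaks from 1 Mb on had medians between 55.5 and 56.5 in the 4 antibody lists and of 72.4 and 76.2 in the Input lists. The members' median was thus 4.13 and 3.65 times that of the other autosomal peaks in Input 1 and 2, and 2.79 to 3.16 times in the antibody lists. Since a region had to pass the threshold 6 times to be a member, these ratios describe the selection and were not tested.

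To set the lists side by side, each member was given the percentile of its highest score among all peaks of that list, with 100 for the strongest peak. The median percentile was 86.1 in Input 1, 85.4 in Input 2, 86.2 in MAT2A-ChIP 1, 83.9 in MAT2A-ChIP 2, 84.0 in IgG control 1 and 83.7 in IgG control 2. The 6 medians lay within a few points of each other, and the MAT2A-ChIP lists differed more from each other than the Input or the IgG control lists did. Weak members were found in every list as well. The number of members under the 50th percentile was 24 and 29 in Input 1 and 2, 23 and 40 in MAT2A-ChIP 1 and 2, and 27 and 32 in IgG control 1 and 2.

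**Figure D1:**
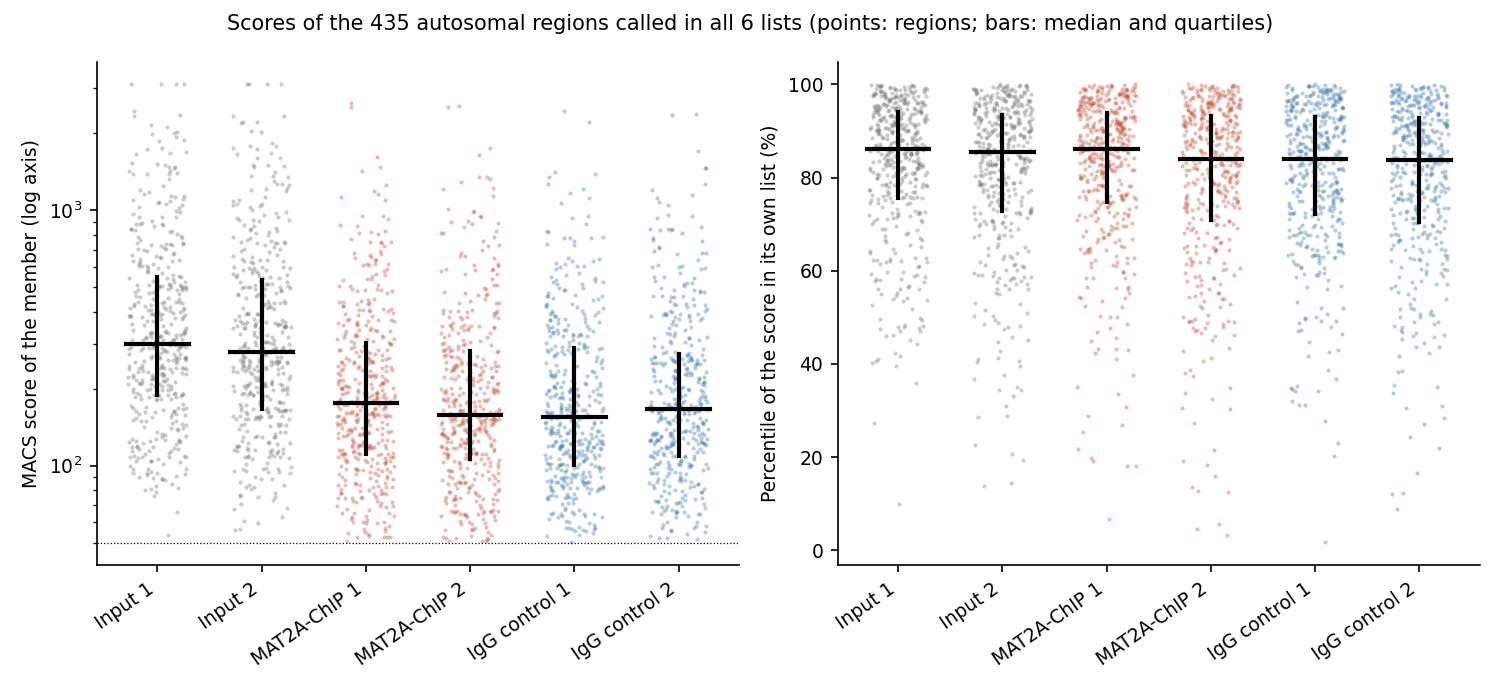
Score (left, log axis, with the calling threshold of 50 as a dotted line) and percentile of the score in its own list (right, %) of the 435 shared regions in each of the 6 libraries. Points are regions and bars give the median and quartiles. Median scores were 299.0 and 278 in the Input lists and 155 to 176 in the antibody lists, which are not on a common scale, and the median percentiles lay between 83.7 and 86.2 in all 6.

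Regions called in fewer lists were weaker and narrower, step by step. From 1 to 6 lists, the autosomal regions from 1 Mb on numbered 3498, 264, 176, 132, 128 and 435, so that presence in every list was the most frequent outcome after presence in a single list. Their median percentile was 21.3, 43.4, 50.7, 56.0, 62.4 and 85.0, and their median width 277, 300, 318, 328, 386 and 502 bp. The steps in percentile from 1 to 2 lists and from 5 to 6 lists were the largest. Percentile and number of lists are not independent measures, because a strong peak is more easily called again. Nor is width, because a region spans all the peaks joined in it. Single peaks differed less in width. Their medians were 300.5 to 369.0 bp in members with 1 peak per list and 265.0 to 286.0 bp in other autosomal peaks from 1 Mb on.

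**Figure D2:**
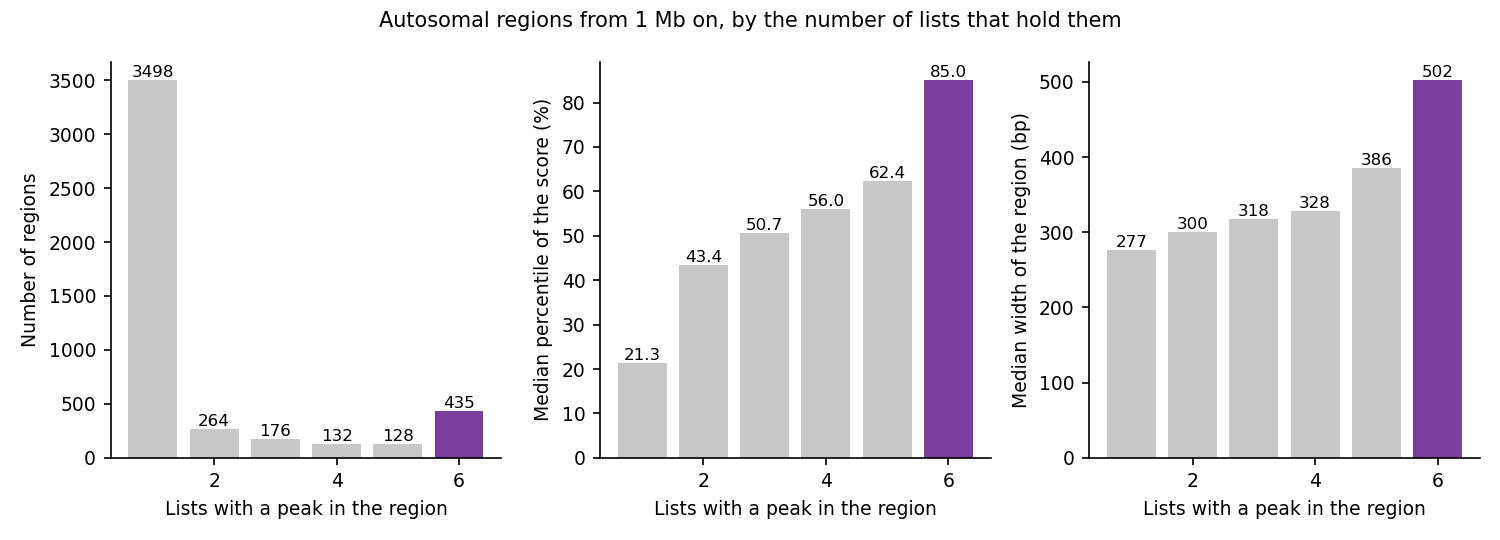
Number of regions (left), median percentile of the score (middle, %) and median width (right, bp) of the autosomal regions from 1 Mb on, by the number of lists with a peak in the region. The shared regions (purple) numbered 435, with a median percentile of 85.0 and a median width of 502 bp.

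The member with the highest lowest percentile over the 6 lists was chr1:61603229-61604769 (bosTau8, here and for all positions), 1541 bp wide. Its score was 3100 in both Input libraries, 2629 and 2558 in MAT2A-ChIP 1 and 2, and 2447 and 2355 in IgG control 1 and 2. It was at or above the 99.8th percentile in each list. Peaks of all 6 lists shared 1494 bp of it, nearly its whole width. The region chr24:19270358-19271206 (849 bp) came next, with 3100 in both Input lists, 2530.2 and 2523 in MAT2A-ChIP, and 2216 and 2369 in IgG control. A score of 3100 or more was reached by 5 peaks of each Input list, 4 of them in shared regions, and by no peak of an antibody list. Several of these Input scores were tied at exactly 3100, so they do not rank the regions, and tied peaks share a mid-rank percentile.

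Another pair of members also reached 3100 in both Input lists. At chr9:65872398-65874116 (1719 bp) the scores were 3100 and 3102 in Input 1 and 2, 1473 and 1647 in MAT2A-ChIP, and 1352 and 1704 in IgG control. At chr28:1893608-1894975 (1368 bp) they were 3100 in both Input lists, 1254 and 1743 in MAT2A-ChIP, and 1383 and 1466 in IgG control. In both regions the values of the MAT2A-ChIP and IgG control libraries overlapped. They were at or above the 99.7th percentile in every list.

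Of the next 3, chr8:74515699-74516876 scored 2348 and 2203 in Input, 1610.0 and 1348 in MAT2A-ChIP, and 1162 and 1458 in IgG control. The region chr4:57441261-57441938 scored 2327 and 2335 in Input, 1152 and 1291 in MAT2A-ChIP, and 946 and 1113 in IgG control. In chr11:107284681-107285826 the scores were 2439 and 2202 in Input, 951 and 1220 in MAT2A-ChIP, and 884 and 1073 in IgG control. Of these 3, only chr4:57441261-57441938 had both MAT2A-ChIP values above both IgG control values, and by score percentile the difference of the means there was 0.1 points.

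The remaining 3 of the top 10 were chr2:70593190-70594739, with a lowest score of 865.0 in any list, chr27:28614817-28616315, with 1130 as its lowest, and chr8:74785259-74786083, with 846 as its lowest. At chr27:28614817-28616315 the 4 antibody lists placed the region higher (99.4th to 99.8th percentile) than the Input lists did (99.2nd and 99.1st). Being chosen for a high percentile in every list, these 10 had little room to differ by percentile between library types.

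Over all 435 members, the 6 libraries gave similar but not identical orders. Spearman correlations across members, given as a description because members are not replicates and share their pools, were 0.93 between the Input libraries, 0.78 between the MAT2A-ChIP libraries and 0.83 between the IgG control libraries. Pairs of different types lay between 0.75 and 0.83. MAT2A-ChIP 1 was thus closer in order to IgG control 1 (0.82) and IgG control 2 (0.83) than to MAT2A-ChIP 2 (0.78). Libraries of different types were about as close within a pool (0.75 to 0.82) as between pools (0.75 to 0.83).

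From the lowest to the highest library, the percentile of a member spanned a median of 16.0 points, and 32 members spanned more than 50. The percentile was at or above 90 in all 6 lists for 96 members, and at or above 50 in all 6 for 332. The library with the lowest percentile of a member was IgG control 1 for 95 members, MAT2A-ChIP 2 for 85, IgG control 2 for 74, Input 2 for 70, MAT2A-ChIP 1 for 60 and Input 1 for 51, so that each library was the weakest for some of them.

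Peak positions were also compared, although overlap was part of the rule and centres had to lie near each other. In the 344 members with a single peak in every list, the centres of the peaks of any pair of libraries differed by a median of 12.2 to 18.8 bp. The closest pair was Input 1 with Input 2. The members were 132 to 6173 bp wide, with quartiles of 324, 502 and 839 bp, and covered 289 kb in total. In 432 of them at least 1 bp was covered by the peaks of all 6 lists, over a median of 273 bp or 62.7% of the width of the region. The exceptions, joined only through chains of overlapping peaks, were chr9:49471450-49472954, chr17:51629648-51630708 and chr27:5292639-5293433. Where members held 1 peak per list, the Input peaks were the widest, with medians of 369.0 and 349.5 bp in Input 1 and 2 against 300.5 to 328.5 bp in the antibody lists.

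The widest members were not the strongest. The widest, chr17:50909337-50915509 (6173 bp), scored 434 and 320 in Input 1 and 2, 432 and 221 in MAT2A-ChIP, and 320 and 322 in IgG control. Another member of the same chain, chr17:50865908-50871019 (5112 bp), scored 338 and 506 in Input, 149 and 103 in MAT2A-ChIP, and 177 and 125 in IgG control, with both Input values above the 4 antibody values by percentile too. Among the other wide members were chr13:14644307-14647687 (3381 bp), chr23:52343688-52346957 (3270 bp) and chr17:50933202-50936448 (3247 bp). Peaks of all 6 lists shared only 345 bp of the region on chromosome 13 and 314 bp of that on chromosome 23, but 2206 bp of the last one.

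The comparison of MAT2A-ChIP with IgG control asks whether the antibody against MAT2A raised any of these regions above what the isotype control recovered. Over the members as a whole, the mean of the median percentiles was 85.0 ± 1.59 (SD, n = 2) in MAT2A-ChIP and 83.8 ± 0.156 in IgG control. The difference of 1.20 points was smaller than the spread between the MAT2A-ChIP libraries (exact permutation test over the libraries, two-sided p = 0.667), and this design cannot give a p below 0.333. Its size depended on the setting. It was 0.07 points with all chromosomes and positions included and 0.33 on percentiles among autosomal peaks from 1 Mb on. Without replicate 1 it was 0.48 points, and without replicate 2 it was 2.90.

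By single regions, both MAT2A-ChIP percentiles were above both IgG control percentiles in 87 of the 435 members (20%), in 62 separate places more than 100 kb apart, where the same pattern was present in 16.2% of the 630 regions of any chromosome called in these 4 lists. Both were below in 53 members (12.2%), against 14.6% of those 630 regions. Among the 195 of the 630 that are not members, 15 (7.69%) were above and 39 (20%) below, so that the members leaned to the upper side and the others to the lower. Most of the 195 are the 105 regions on X and the 60 in the first Mb of an autosome called in all 6 lists. The lean of the members depended on the scale. Ranked among the members alone, an alternative chosen after seeing the data, 67 were above and 68 below. The median difference of the means was 6.1 points in the 87 members and −9.8 points in the 53, and neither count was tested, since regions are not replicates.

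Among the 87, the largest difference was at chr28:11370128-11372189 (2062 bp), at the 76.6th and 49.6th percentile in MAT2A-ChIP 1 and 2, the 23.0th and 16.6th in IgG control 1 and 2, and the 68.2nd and 65.0th in Input 1 and 2. The scores there were 147 and 136 in Input, 119 and 66.7 in MAT2A-ChIP, and 53.6 and 53.0 in IgG control. The Input percentiles lay between those of the MAT2A-ChIP libraries, and both IgG control scores were near the threshold of 50.

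At the next 4, the place of Input relative to MAT2A-ChIP differed. The region chr1:57906477-57907651 scored 257 and 215 in Input, 80.5 and 127 in MAT2A-ChIP, and 54.7 and 68.4 in IgG control. At chr21:1375484-1375985 the scores were 209 and 208 in Input, 182 and 139 in MAT2A-ChIP, and 55.9 and 113 in IgG control. In each case the percentiles of both Input libraries were above those of both IgG control libraries. At chr1:57906477-57907651 the Input percentiles (82.8 and 79.9) were also above both of MAT2A-ChIP (62.8 and 77.1). At chr21:1375484-1375985 both MAT2A-ChIP percentiles (86.8 and 80.1) were above those of Input (78.4 and 79.0). The region chr3:115175349-115175885 scored 329 and 305 in Input, 114 and 223 in MAT2A-ChIP, and 61.7 and 83.0 in IgG control. At chr14:43044526-43044844 the scores were 213 and 194 in Input, 99.8 and 153 in MAT2A-ChIP, and 81.1 and 64.9 in IgG control. In both of these regions the Input percentiles lay between those of the MAT2A-ChIP libraries. All 5 had higher percentiles in both Input lists than in either IgG control list, and at least 1 of the IgG control scores was under 70 in each.

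The 53 members below IgG control were led by chr6:5595238-5595802, with scores of 118 and 114 in Input, 50.7 and 66.3 in MAT2A-ChIP, and 86.0 and 102 in IgG control. At chr1:93016953-93017331 they were 200.2 and 299 in Input, 52.4 and 102 in MAT2A-ChIP, and 142 and 155 in IgG control. The region chr19:20336832-20337276 scored 267 and 165 in Input, 52.6 and 88.8 in MAT2A-ChIP, and 134 and 115 in IgG control. In these 3 it was MAT2A-ChIP 1 that lay close to the threshold. MAT2A-ChIP 2 did so in the other 2, with 72.5 and 51.9 in MAT2A-ChIP against 80.6 and 102 in IgG control at chr10:89321198-89321646, and 61.4 and 50.8 against 63.8 and 79.9 at chr17:51473762-51474787. The extremes in both directions were therefore members with a score under 70 in at least 1 library.

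Members in which MAT2A-ChIP exceeded both kinds of control were fewer. In 28 members (6.44%) both MAT2A-ChIP percentiles were above those of the 4 other libraries, against 5.17% of the 600 regions called in all 6 lists. In 26 (5.98%) both were below, against 6.17%. Since these 600 include the members, the 165 other regions, on X or in the first Mb of an autosome, are given as well. Of these, 3 (1.82%) were above and 11 (6.67%) below. These differences were not tested. A margin of 10 points was reached in 0 members above and in 1 below, chr9:52237217-52237583, which is named after its values were seen and lay at the 43.1st and 64.0th percentile in MAT2A-ChIP 1 and 2 and between the 76.9th and the 86.7th in the other 4 libraries. Above, the widest margin was 8.0 points, at chr14:1351728-1352117 and at chr28:11355839-11356276. The first scored 103 and 101 in Input, 141 and 122 in MAT2A-ChIP, and 62.7 and 101 in IgG control. The second scored 231 and 165 in Input, 210.1 and 202 in MAT2A-ChIP, and 108 and 126 in IgG control, which placed it at the 89.3rd and 89.0th percentile in MAT2A-ChIP and between the 72.5th and the 81.0th in the other 4 libraries. That region is in the same run of 4 members on chromosome 28 as chr28:11370128-11372189 above.

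**Figure D3:**
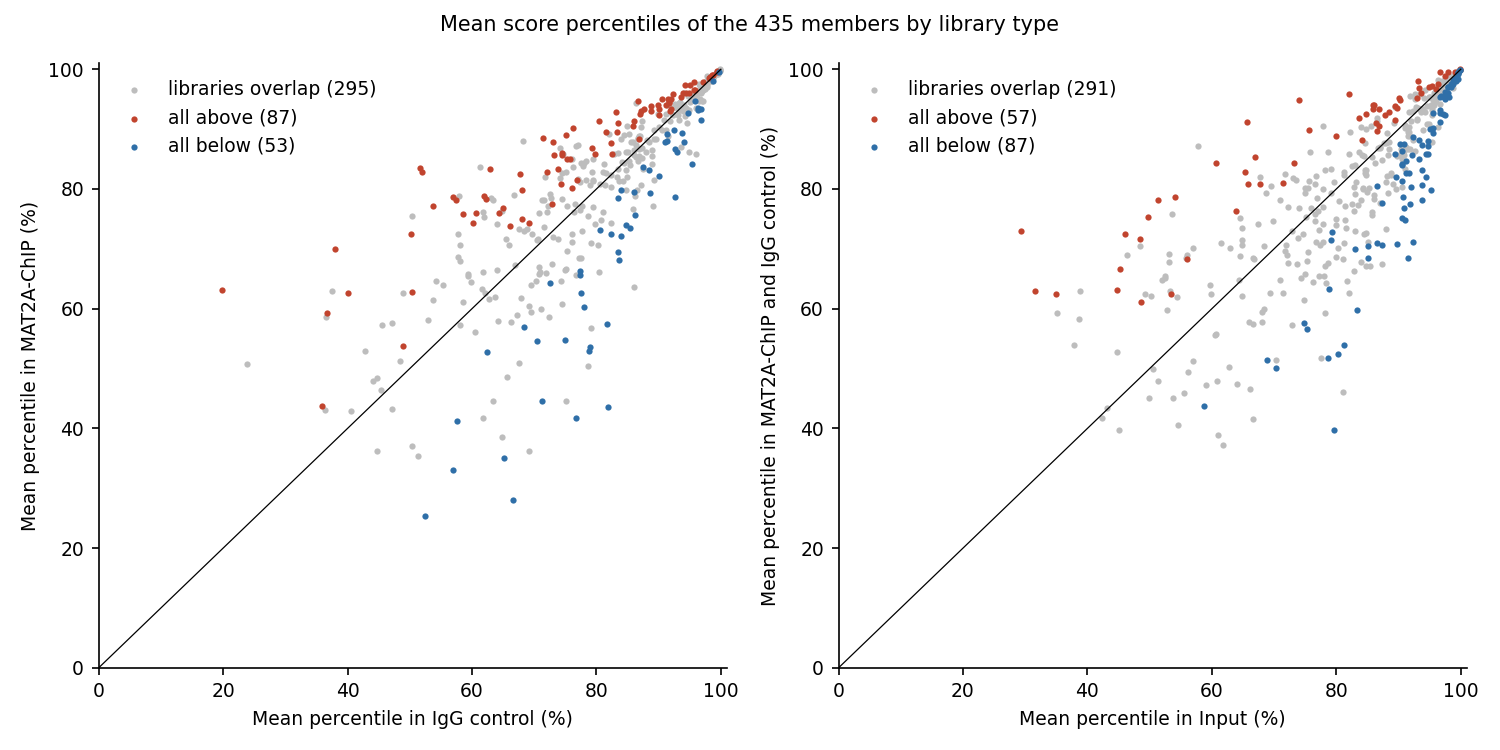
Mean percentile of the score (%) of each of the 435 shared regions in MAT2A-ChIP against IgG control (left) and in the 4 antibody libraries against Input (right). Red points have all libraries of the type on the vertical axis above all of the other type (87 and 57 members), blue points have them all below (53 and 87), and the line marks equality. Points spread widest at low percentiles and close up near 100.

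The comparison of the antibody libraries with Input asks whether the shared regions ranked differently once chromatin had passed through an antibody and beads. The mean of the median percentiles was 84.4 ± 1.16 (SD, n = 4) in the antibody libraries and 85.7 ± 0.477 (n = 2) in Input. The difference of −1.30 points was about as large as the spread between libraries (exact permutation test, two-sided p = 0.4, smallest possible p 0.0667). The size and sign of this difference depended on the scale. It was 0.89 points when the percentile was taken among autosomal peaks from 1 Mb on only, and −9.38 and −11.63 points with minimum scores of 70 and 100 in every list (p = 0.0667 by the same exact test for both). As the median log2 of the score over the list's own median score, with no peaks removed, it was −0.27 (p = 0.0667 by the exact test), with both Input libraries above the 4 antibody libraries. Such a minimum removes more peaks from the antibody lists, whose median score over all peaks was 64.9 to 70.9, than from the Input lists, with 98.1 and 97.1.

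All 4 antibody percentiles were above both Input percentiles in 57 members (13.1%), against 12.3% of the 600 regions of any chromosome called in all 6 lists, and below both in 87 members (20%), against 16.5%. The 57 include chr1:61603229-61604769 and chr24:19270358-19271206, where the Input scores were tied at 3100 and the antibody scores were lower. Since that background includes the members, the 165 other regions are given as well, of which 17 (10.3%) were above and 12 (7.27%) below. These others are the 105 on X and the 60 in the first Mb of an autosome. The members were thus more often below Input than regions on X and in the first Mb were, a difference that was not tested. The split of the members turned over with the scale, with 79 above and 57 below on percentiles among autosomal peaks from 1 Mb on. With a minimum score of 70 in every list, which left 339 members, 16 were above and 159 below.

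In the upper direction the largest difference was at chr21:1927978-1928209 (232 bp), which scored 76.2 and 62.7 in Input 1 and 2, 112 and 151 in MAT2A-ChIP, and 137 and 73.1 in IgG control. The region chr17:25029772-25032503 (2732 bp) scored 84.6 and 60.6 in Input, 92.5 and 74.4 in MAT2A-ChIP, and 88.6 and 84.6 in IgG control. At chr17:34219754-34220151 the scores were 82.1 and 68.1 in Input, 87.9 and 82.0 in MAT2A-ChIP, and 76.2 and 88.0 in IgG control. In these 3 the Input scores were well below the members' medians of 299.0 and 278, and only the first reached the 75th percentile in any antibody list.

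Both other members of this group belong to the chain on chromosome 1 that starts with chr1:61603229-61604769. The region chr1:61705573-61706130 scored 251 and 73.4 in Input, 223 and 194 in MAT2A-ChIP, and 137 and 213 in IgG control, and its Input 1 percentile of 82.6 lay above that of IgG control 1, so that its groups overlapped. At chr1:61697910-61698845 the scores were 124 and 82.7 in Input, 128 and 146 in MAT2A-ChIP, and 114 and 128 in IgG control, with all antibody percentiles above both Input percentiles.

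In the lower direction, chr1:91215641-91216078 led with 227 and 206 in Input against 58.1 and 67.2 in MAT2A-ChIP and 57.7 and 58.3 in IgG control. The region chr4:81708280-81708611 scored 190.3 and 265 in Input, 95.5 and 63.6 in MAT2A-ChIP, and 64.4 and 65.7 in IgG control. All 4 antibody scores were under 70 in the first of these, and 3 of the 4 in the second. The others were chr1:57906477-57907651, given above, chr29:30384028-30384971, with 197 and 223 in Input against 52.4 to 92.7 in the antibody lists, and chr1:145353424-145353742, with 281 and 199 in Input against 51.5 to 126 in the antibody lists, where IgG control 1 overlapped Input by percentile.

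The shared regions were spread unevenly over the genome. They lay on 28 of the 29 autosomes, with 46 on chromosome 1, 45 on chromosome 6 and 34 on chromosome 29, which together held 28.7% of them. On chromosome 29, 23.4% of the autosomal regions from 1 Mb on were members, against 9.39% over all autosomes. Chromosome 15 held 129 such regions and 0 members.

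**Figure D4:**
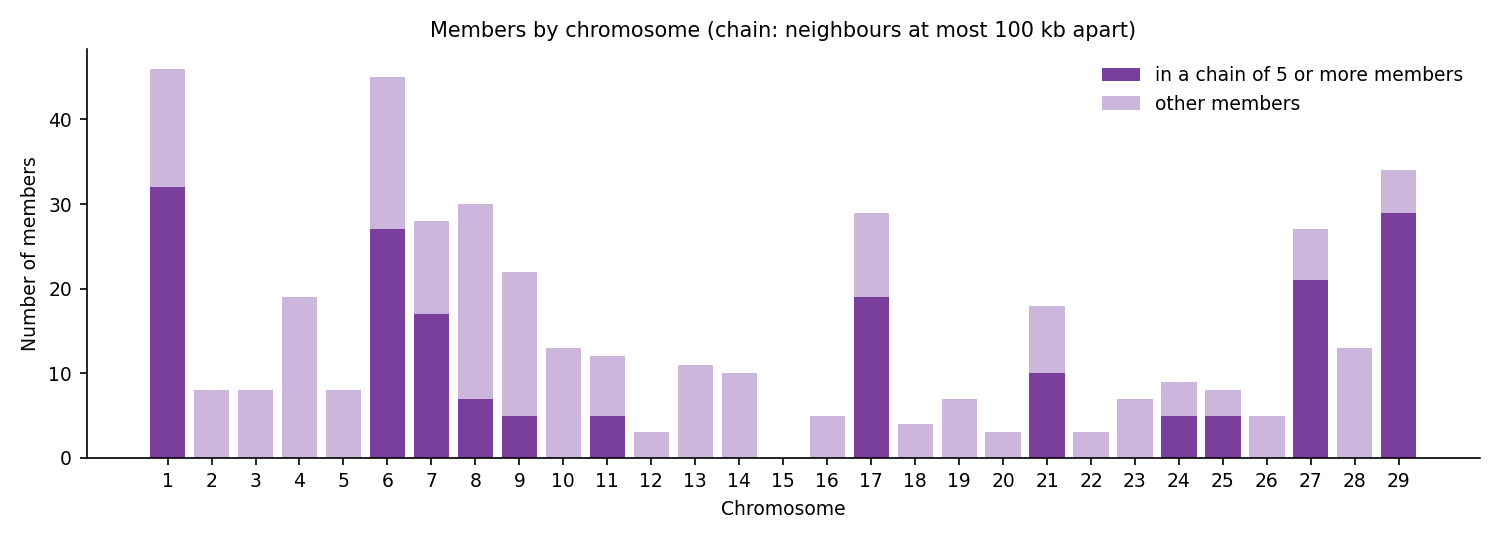
Number of shared regions (members) on each autosome, with those in chains of 5 or more members, each at most 100 kb from the next, in dark purple. Chromosomes 1, 6 and 29 held 46, 45 and 34 members, most of them in chains, and chromosome 15 held 0.

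Most members had another member close by. Joining members at most 100 kb apart gave 197 chains, of which 133 were single members (30.6% of all) and 64 held the other 302 (69.4%). In all, 17 chains of 5 or more members held 182 of them (41.8%), and the 3 longest by number of members held 83 (19.1%). The median distance from a member to the nearest other member was 7.17 kb. It was 15 kb from regions called in 3 to 5 lists to the nearest member, 108 kb from those called in 2 lists and 4846 kb from those called in 1 list. Within 10 kb of another member lay 55.2% of the members, 45.6% of the regions in 3 to 5 lists, 34.8% of those in 2 and 3.74% of those in 1. Any other region, member or not, lay within 10 kb of 77% of the members, 79.4% of the regions in 3 to 5 lists, 73.9% of those in 2 and 11.5% of those in 1. Regions called in several lists thus lay close to other regions of any kind, and regions called once mostly did not.

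The chain with the most members, 32, ran over 152 kb at chr1:145295193-145447216. Its members lay a median of 3186 bp from one to the next, with 48 further regions called in fewer lists between them. Its members' median percentile was 85.9 and 86.6 in Input 1 and 2, 86.2 and 81.9 in MAT2A-ChIP, and 82.1 and 83.0 in IgG control. Levels within it ranged from the 8.9th to the 98.5th percentile. Its strongest member, chr1:145348531-145349686, scored 736 and 645 in Input, 682 and 396 in MAT2A-ChIP, and 496 and 519 in IgG control. The member with the lowest percentile in any list, 8.9 in IgG control 2, was chr1:145353424-145353742, only a few kb away. It is one of those named above as low in the antibody libraries. In this chain 8 members had all antibody percentiles below Input and 2 had them above, beside 16.5% and 12.3% of all regions called in 6 lists. On percentiles among autosomal peaks from 1 Mb on, 3 were below and 3 above.

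The second chain, of 29 members with 33 other regions between them, covered 160 kb at chr29:30225152-30384971. It was the strongest of the 3, with median percentiles of 92.5 in both Input libraries, 91.9 and 90.6 in MAT2A-ChIP, and 89.7 and 89.0 in IgG control. Both MAT2A-ChIP percentiles were above both IgG control percentiles in 9 of its members and below in 4, against 16.2% and 14.6% of all regions called in these 4 lists, without a test. Its strongest member was chr29:30367584-30369156, which scored 1981 and 2337 in Input, 748 and 1318 in MAT2A-ChIP, and 1204 and 1146 in IgG control. The lowest percentile in this chain, 18.1 in MAT2A-ChIP 1, was at chr29:30384028-30384971, named above. The chain lies around an intron of KIRREL3, a cell adhesion protein of the immunoglobulin superfamily, where 2 peaks specific to MAT2A-ChIP are placed by the annotation.

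The third, of 22 members over 226 kb at chr6:6404686-6630484, had the lowest Input levels of the 3. Its median percentiles were 82.6 and 78.3 in Input, 86.2 and 82.8 in MAT2A-ChIP, and 85.1 and 85.4 in IgG control. All 4 antibody percentiles were above both Input percentiles in 9 of its members and below in 1, where 12.3% and 16.5% of all regions called in 6 lists were above and below, and on the autosomal percentiles 11 were above and 0 below. This difference from other members was not tested. Its strongest member, chr6:6404686-6406128, scored 1153 and 939 in Input, 808 and 580.2 in MAT2A-ChIP, and 730 and 764 in IgG control. The lowest percentile in this chain, 19.7 in MAT2A-ChIP 1, was at chr6:6609972-6610327. That member scored 118 and 112 in Input, 52.7 and 74.1 in MAT2A-ChIP, and 65.6 and 71.2 in IgG control. Neighbouring chains on chromosome 6, at chr6:5505967-5596386 and chr6:6025820-6174310, held 5 and 4 members, with 1 above Input in each and 0 below, and that at chr6:5311607-5361135 held 4, with 0 in either direction. On the autosomal percentiles these 3 chains had 2, 1 and 1 above and 0 below.

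**Figure D5:**
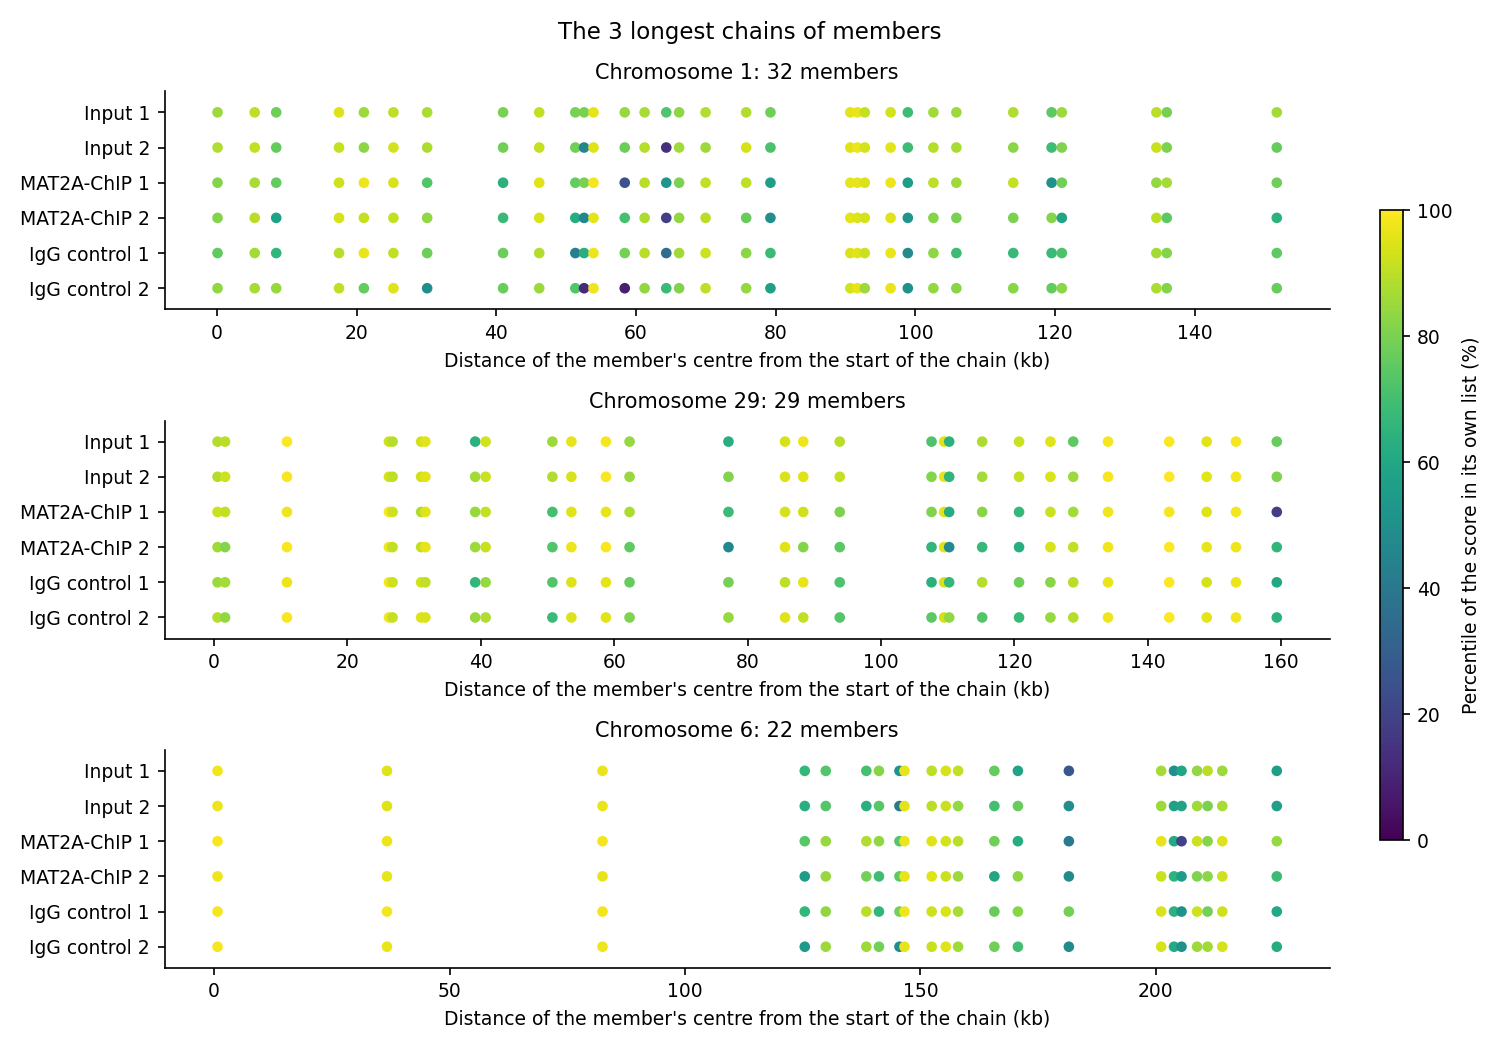
Position of the members of the 3 longest chains, as distance from the start of the chain (kb), with the percentile of the score in each library's own list as colour (%). The chains on chromosomes 1, 29 and 6 held 32, 29 and 22 members. Strong and weak members alternated over short distances, and a member that was strong in a library was mostly strong in the other 5.

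Some shorter chains held mostly members of a single direction, on either percentile scale except where given. Over all regions called in 6 lists, 12.3% were above Input and 16.5% below, and 16.2% of those called in the 4 antibody lists were higher in MAT2A-ChIP than in IgG control. In the chain at chr25:32361929-32472784, 4 of 5 members had all antibody percentiles above Input and 0 below, with median percentiles of 72.0 and 83.8 in Input, 93.0 and 85.2 in MAT2A-ChIP, and 96.9 and 92.9 in IgG control. Its strongest member, chr25:32373825-32374254, scored 878 and 912 in Input, 1187 and 1136 in MAT2A-ChIP, and 1265 and 1194 in IgG control, at the 96.6th and 96.8th percentile in Input and the 99.4th to 99.7th in the antibody lists. The member chr25:32472510-32472784 scored 163 and 255 in Input, 283 and 136 in MAT2A-ChIP, and 454 and 275 in IgG control. A MAT2A-ChIP specific peak beside it was assigned by the annotation to RN45S and RN18S1, which encode the ribosomal RNA precursor and the small subunit's ribosomal RNA.

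At chr27:43571139-43581302, a chain of 4 members in 10.2 kb, 3 members had all antibody percentiles above Input, beside 12.3% of all regions called in 6 lists. The opposite held at chr11:107284681-107308654, where 4 of 5 members were below Input and 1 above (16.5% and 12.3% over all), with median percentiles of 96.8 in both Input libraries and 92.3 to 95.3 in the antibody libraries. In the chain of 4 at chr28:2548828-2652796, 3 members were higher in MAT2A-ChIP than in IgG control (16.2% over all regions called in these lists), and 2 on the autosomal percentiles. One of them, chr28:2643829-2644545, scored 487 and 346 in Input, 157 and 250.2 in MAT2A-ChIP, and 97.6 and 126 in IgG control. These chains were picked out by their counts after the values were seen, and members of a chain are neighbours that may not vary independently.

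The study's filter keeps peaks of MAT2A-ChIP that recur in both pools and are missing from Input, or from IgG control, in each pool. It could hardly keep a peak in a shared region, and it did so in 1. Applied to the lists it gave 76 specific peaks, of which 45 were on autosomes from 1 Mb on. Only 2 lay inside a member, both in chr26:4831296-4832090, which scored 792 and 930.3 in Input, 218 and 280.3 in MAT2A-ChIP, and 362 and 671 in IgG control. Each list had its peak or peaks there, but peaks of MAT2A-ChIP 1 at chr26:4831584-4831831 and chr26:4831896-4832060 were joined to the others through a chain of overlaps. In that region both MAT2A-ChIP percentiles were below both IgG control percentiles.

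The specific peaks outside members often stood near one. Of the 43, 16 (37.2%) lay within 10 kb of a member and 22 (51.2%) within 100 kb. Of 78 other autosomal peaks outside members that recurred in both MAT2A-ChIP lists, 52.6% lay within 10 kb and 69.2% within 100 kb. Of 1008 peaks of MAT2A-ChIP 1 without a counterpart in MAT2A-ChIP 2, 8.73% and 13.7% did. The shares of the specific peaks thus lay between those of the other peaks outside members that recurred in MAT2A-ChIP and of the peaks that did not. None of these shares was tested.

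Some of the specific peaks near members carry gene assignments in the annotation that accompanies the study, and the genes below were picked for this after the positions were seen. BHMT, which remethylates homocysteine to methionine from betaine, and DMGDH, the next enzyme of betaine breakdown, lie downstream of a specific peak at chr10:10105977-10106144, 960 bp from the member chr10:10107105-10107356. That member scored 96.6 and 129 in Input, 56.6 and 66.2 in MAT2A-ChIP, and 66.8 and 90.8 in IgG control, and the specific peak 78.5 in MAT2A-ChIP 1. Here both MAT2A-ChIP percentiles of the member (33.6 and 49.0) were below those of all 4 control libraries (49.5 to 63.3).

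An intron of DYSF, which encodes dysferlin of the muscle membrane, holds a specific peak 266 bp from the member chr11:13095761-13096928. The member scored 599 and 371 in Input, 151 and 163 in MAT2A-ChIP, and 188 and 194 in IgG control, and was thus lower in MAT2A-ChIP than in both controls. An intron of ZNF280B, a zinc finger gene, holds one 365 bp from chr17:51422484-51423953, which scored 420.3 and 278 in Input, 200.1 and 145 in MAT2A-ChIP, and 173 and 188 in IgG control. In this member MAT2A-ChIP and IgG control overlapped.

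In introns of RNF122, a RING finger protein, a specific peak lay 843 bp from chr27:28854377-28854757, with scores of 293 and 291 in Input, 209.9 and 112 in MAT2A-ChIP, and 184 and 255 in IgG control. Of the 2 KIRREL3 peaks, one lay 3446 bp from chr29:30310309-30311230, with 511 and 598 in Input, 294 and 349 in MAT2A-ChIP, and 221 and 376 in IgG control. In both members the MAT2A-ChIP and IgG control values overlapped. For PPARD, a nuclear receptor of fatty acid metabolism, the peak upstream lay 5961 bp from chr23:9218727-9219022. The scores there were 106 and 144 in Input, 102 and 64.2 in MAT2A-ChIP, and 56.9 and 60.2 in IgG control. Both MAT2A-ChIP values were above IgG control, whereas the Input percentiles (54.6 and 67.2) lay between those of MAT2A-ChIP (71.5 and 47.0). For WRN, a RecQ DNA helicase, both specific peaks were farther off, 18367 and 22624 bp from the nearest member.

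At the edge of the selection, a score close to 50 in a single list decided membership. The lowest score of a member in any list was 50.3, in IgG control 1 at chr28:11366939-11367367, which scored 116 and 135.0 in Input, 55.6 and 106 in MAT2A-ChIP, and 65.9 in IgG control 2. Next were chr17:50930657-50931687 and chr17:51241361-51241793, with 50.5 and 50.6 in MAT2A-ChIP 2, and then chr6:5595238-5595802 and chr17:51473762-51474787, given above. In all, 47 members had a score under 60 in at least 1 list, and 252 had 100 or more in every list.

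Just outside were 128 autosomal regions called in 5 of the 6 lists. The missing list was Input 1 or Input 2 in 8 each, MAT2A-ChIP 1 in 20, MAT2A-ChIP 2 in 39, IgG control 1 in 29 and IgG control 2 in 24. Some were strong where they were called. For example, chr22:42420511-42420676 had no peak in Input 1 but scored 188 in Input 2, 254 and 222 in MAT2A-ChIP, and 286 and 213 in IgG control. The region chr10:38462198-38462906 had no peak in IgG control 2 but scored 305.0 and 395 in Input, 130.1 and 144 in MAT2A-ChIP, and 201 in IgG control 1. Without a peak in MAT2A-ChIP 1, chr5:114134898-114135135 scored 325 and 165 in Input, 122 in MAT2A-ChIP 2, and 110 and 108 in IgG control. At the position limit of 1 Mb, the closest members were chr14:1001887-1002331 and chr14:1011961-1012469, with percentiles from 41.3 to 78.5, and the closest regions left out were chr14:921176-921546 and chr14:920719-921086, with percentiles from 39.1 to 86.3.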

How the data were processed

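The authors removed adapters with bcl2fastq, used Bowtie 1.1.2 for the alignment of single reads to bosTau8, from which scaffolds were left out, and ran MACS with default settings on every library by itself. The 6 deposited lists give the positions and the score of each peak, and hold no read counts, so the depth behind a peak is unknown. Peaks overlapping by 1 bp or more were joined, and the joined regions were compared with those of bedtools 2.31.1, which were identical. The highest score of a region in each list was turned into its mid-rank percentile among the peaks of that list. Library types were compared by two-sided exact permutation tests over libraries on the median percentile, with Python 3.11.15, numpy 2.4.6 and scipy 1.17.1, and figures were drawn with matplotlib 3.10.9. The steps were also tested on simulated data.

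The replicate numbers pair the libraries because each pool of chromatin was divided among them. Deviations of same-numbered libraries correlated with −0.02, 0.11 and 0.06 across members.

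The members and lists were chosen with earlier results of these data known. Named regions were the 10 members with the highest lowest percentile, the 5 at each end of MAT2A-ChIP minus IgG control among those that did not overlap, the 5 at each end of antibody minus Input, the 5 widest, the 5 with the lowest score in any list and the 3 longest chains. Regions near genes and other chains were chosen after their values were seen. Alternatives changed the overlap, joining distance, minimum score, position limit, percentile scale and replicates. Gene names came from the annotation that accompanies the study, 15 of 17 of them found in a RefSeq table of ARS-UCD2.0 used for names only. No sequence, repeat content or copy number was examined.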

Additional observations from a re-analysis of the deposited data

How the results depend on the processing

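Of 87 alternatives, 73 kept the direction or, for counts, stayed within 1.5 times, 13 moved a count further and 1 turned a sign. No level could pass 0.05 under any of them, and keeping the direction does not mean keeping the size. The sign turned for the antibody libraries against Input, from −1.30 to 0.89 points on percentiles among autosomal peaks from 1 Mb on. The number of members fell to 251 at a minimum score of 100 and to 197 with chains counted as 1, and was 530 to 551 without a replicate. Members with antibody percentiles above Input numbered 16 and 11 at minimum scores of 70 and 100, and 163 to 194 without a replicate, where fewer libraries have to stand apart. Those below Input numbered 159 and 140 at these scores, 207 to 211 without a replicate, and 57 on the autosomal percentiles. Members with MAT2A-ChIP above IgG control numbered 49 at a minimum score of 100, and those below numbered 89 with all chromosomes included. Beyond the fewer libraries or regions compared, the cause of these shifts was not tested. Antibody minus Input was −9.38 and −11.63 points at minimum scores of 70 and 100, −0.18 with summed scores, and −1.58 to −1.18 without a replicate. With 1 value per chain, which was not planned, it was −0.40 points. MAT2A-ChIP minus IgG control was 0.07 with all chromosomes included, 0.33 on the autosomal percentiles, and 0.48 to 2.90 without a replicate.

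With the replicate number as a block, the difference of −1.30 points between antibody libraries and Input had p = 0.444 and that of 1.20 points between MAT2A-ChIP and IgG control p = 0.5 (exact permutation tests within replicates, with smallest possible p-values of 0.111 and 0.5). With or without the block no p under 0.05 was possible, so these values say nothing about stability. The p-values of the alternatives lay between 0.0667 and 1. The smallest possible p is 0.0667 for antibody libraries against Input and 0.333 for MAT2A-ChIP against IgG control without the block, and several alternatives sat at it. Counts of MAT2A-ChIP against IgG control without a replicate were not made, since they would compare a single library with another. Scores in at least 1 list were under 70 in 96 members and under 60 in 47, with a calling threshold of 50. With such low scores and 2 libraries of each type, small differences between library types are not detectable here.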
